A study of Mus musculus with 6 samples.

Results

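Genes of the complement system, both components of the cascade and the membrane proteins that restrain it, were compared between 2 mouse malignant mesothelioma cell lines. The genes were C2, C3, Cfb, Cfi, Cfd, Cd55, Cd59a, Cr1l and C1qbp, 9 in all. They were chosen by name, with earlier results of these data known. A gene counted as measured where at least 1 probe set of the array carried its symbol alone, and the brightest of these over the 6 arrays stood for it. By this rule 7 of the 9 genes were measured, with 15 probe sets, among 18193 genes on the array. C3, the component on which the activation pathways converge, and Cfd, the protease that activates factor B, were not analysed here.

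AB1 cells come from a BALB/c mouse and AC29 cells from a CBA mouse, and the labels give female animals of 6 to 8 weeks as the source for both. AB1 was grown to passage 40 and AC29 to passage 60, in the same medium, and the labels name no drug or other agent for either line. For each line RNA was taken from 3 flasks, harvested at 80% confluency, and put on 1 Affymetrix array per flask, so a p-value measures the spread between flasks of 1 line and not between tumours or animals. Line, strain and passage coincide and cannot be told apart, and each group is a single line. Of the genes used as markers of mesothelium, Msln read 9.67 in AB1 and 10.41 in AC29 on the log2 scale, while Wt1 read 4.77 in AB1, where no array was above the floor explained below, and 9.59 in AC29.

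Complement is a cascade of plasma proteases and pore-forming proteins that marks and lyses target cells. The classical pathway starts when C1q binds a surface and its partners C1r and C1s cleave C4 and C2, the lectin pathway starts from mannose-binding lectins and their proteases, and the alternative pathway amplifies through factor B and factor D. Liver makes most of the plasma proteins, but epithelial, mesothelial and stromal cells can make some of them, and nearly all nucleated cells carry surface regulators that stop the cascade on their own membrane. Tumour cells are known to be shielded by such regulators.

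All values are deposited log2 intensities, written as mean ± SD over 3 arrays, and differences are AC29 minus AB1. A gene was called when its adjusted p in limma was under 0.05 and its difference was at least 2-fold. Values up to 6.07 count as background. This floor is the 95th percentile of 86 sensory receptor probe sets (smell, pheromone and taste), whose genes cultured tumour cells are not known to use. Array medians ranged from 5.76 to 5.81. AC29 replicate 14 had the lowest weight, 0.449, when arrays were weighted by their fit, against 0.887 to 1.70 for the others. None of 12 macrophage, 5 lymphocyte and 5 hepatocyte markers was called in limma, where 10.9% of all 18193 genes were. Of these lists, 4, 1 and 3 markers were above the floor on at least 1 array, while Ptprc, Adgre1, Itgam and Alb were above it on none. Csf1r (6.56 in AB1 and 6.66 in AC29), Cd3e (6.83 and 7.01), Ttr (6.86 and 6.90) and Apoa1 (6.56 and 6.65) were above the floor on all 6 arrays, Cd68 was above it in AB1 only (6.68 and 6.03, limma adjusted p = 0.00015) and Lyz2 in AC29 only (5.83 and 6.31). The other probe sets of Ttr and Apoa1 were not above the floor on any array. Those of Csf1r were above it on 6 arrays (6.53 in AB1 and 6.65 in AC29) and on 3 arrays (5.91 and 6.34). Summed linear intensities of the macrophage list ran from 465 to 484 in AB1 and from 441 to 485 in AC29. Of 8 fibroblast markers 4 (50%) were called, against 10.9% of all genes. Dcn (5.98 and 12.81), Col1a1 (11.43 and 13.12) and Lum (4.46 and 6.00) were called as higher in AC29, and Pdgfrb (9.11 and 4.96) as higher in AB1. Lum was at background, with only 1 AC29 array above the floor. Col1a2 (13.44 and 13.88) and Col3a1 (12.65 and 11.84) were not called by their brightest probe sets. Other probe sets of Col1a2 differed by 1.32 and 1.51, both past the rule, the second with 2 arrays above the floor. That of Col3a1 differed by 0.77, against -0.81 for its brightest. Summed intensities of that list were 21471 to 21757 in AB1 and 33039 to 39447 in AC29, and its part in the differences below was not tested. In bulk RNA such as this, fewer expressing cells and less RNA per cell cannot be told apart.

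C2 alone of the 7 measured genes was called, and it was higher in AC29. That is 1 of 7 (14.3%), where 10.9% of all 18193 genes were called and 5.12% were called as higher in AC29, so the count is near the background. No gene of the 7 was called by limma as higher in AB1, against 5.82% of all genes. Adjusted p was under 0.05 at any size of difference for 3 of the 7, C2, Cd55 and Cd59a, against 39.1% of all genes. In the same 3 every array of one line lay above every array of the other, against 50.1% of all genes. The median difference of the 7 was 0.21, and that of all genes was -0.0047.

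**Figure D1:**
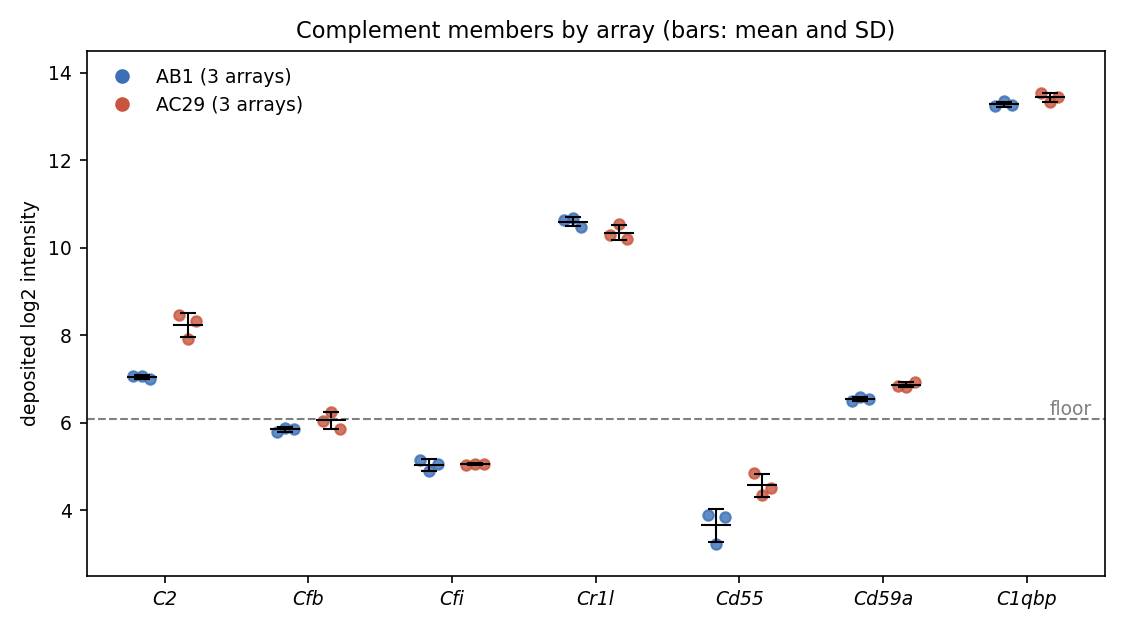
Deposited log2 intensity of the 7 measured complement genes on each of the 6 arrays, with AB1 in blue and AC29 in red; points are arrays, bars are the mean and SD over 3 arrays, and the dashed line is the floor of 6.07. C2 lies apart between the lines, C1qbp and Cr1l are bright in both, and Cfi and Cd55 stay under the floor on every array.

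C2 encodes the protease that joins C4b to form the C3 convertase of the classical and lectin pathways. Its brightest probe set read 7.07, 7.05 and 6.99 on the AB1 arrays 4, 5 and 6. It read 8.45, 7.92 and 8.31 on the AC29 arrays 13, 14 and 15. All AC29 arrays lay above all AB1 arrays, with replicate 14 the lowest of its line. The difference was 1.19 (SE 0.133, 95% interval 0.89 to 1.49), which is 2.28-fold (limma adjusted p = 7.93e-05), and it was 1.35 without replicate 14. The interval reaches under 1, and a test in limma against a 2-fold difference did not call the gene (adjusted p = 1).

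The size of the C2 difference varied with the probe set, and its direction did not. The brightest probe set carries the suffix x_at, which marks probes shared with other transcripts. The probe set with neither that suffix nor s_at read 6.34, 6.39 and 5.96 in AB1 against 7.99, 7.85 and 8.07 in AC29. Its difference was 1.74, or 3.34-fold (limma adjusted p = 6.23e-06 over all probe sets). The remaining probe set differed by 1.80, or 3.48-fold. In these last the AB1 arrays lay at the floor, with 2 of 3 and 1 of 3 above it, and the AC29 arrays were all above it. All 3 probe sets passed the rule.

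**Figure D2:**
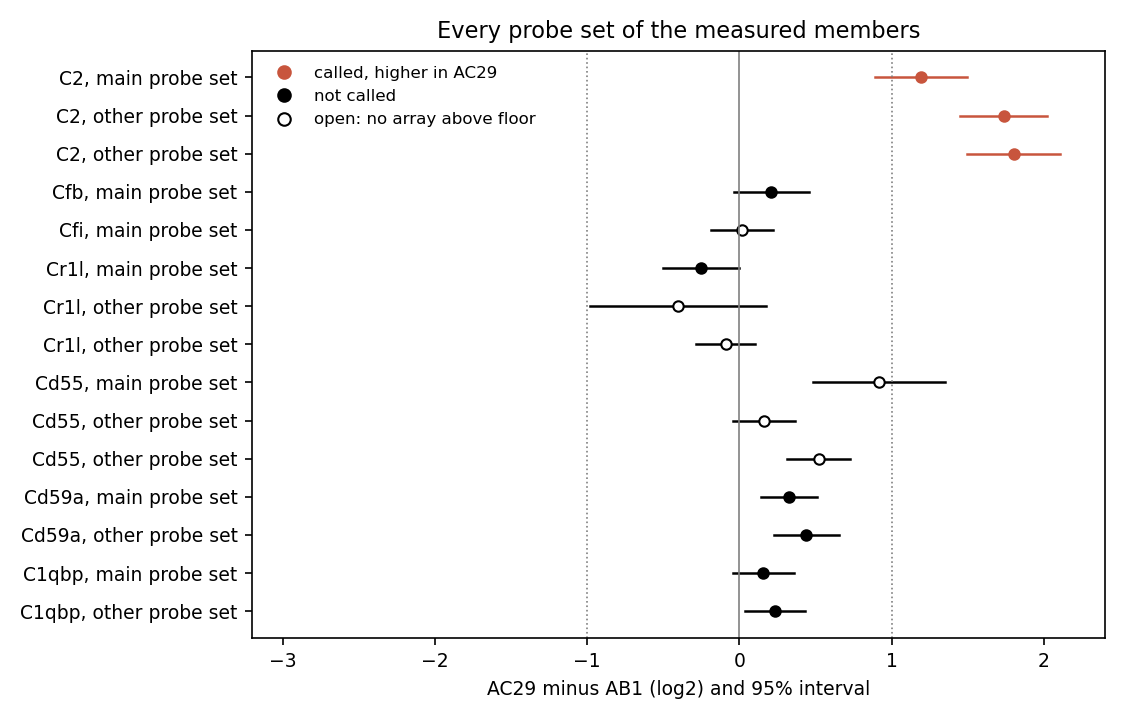
Difference between the lines (AC29 minus AB1, log2) with its 95% interval for each of the 15 probe sets of the 7 measured genes; red marks a called probe set, black one not called, open circles those with no array above the floor, and dotted lines a 2-fold difference. The 3 probe sets of C2 are the only called ones among the 15.

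By a fixed rule, the genes with the most similar profile to C2 were sought among 11646 other genes above the floor on at least 1 array. The measure was the Euclidean distance between log2 values centred on each gene's mean over the 6 arrays. Ndrg4 lay nearest at a distance of 0.159, followed by Gk5 at 0.168 and Tnip1, an inhibitor of NF-kappaB signalling, at 0.213. Their differences between the lines were 1.26, 1.11 and 1.26. AC29 replicate 14 was the lowest AC29 array for each of them, as for C2. The genes were chosen by distance over these same arrays, so both likenesses follow from the choice.

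Cfb encodes factor B, the protease of the alternative pathway convertase and the close relative of C2. It read 5.78, 5.88 and 5.86 in AB1 and 6.05, 6.25 and 5.86 in AC29. Only AC29 replicate 14 was above the floor, and the lines overlapped. The difference was 0.21 (95% interval -0.03 to 0.45, limma adjusted p = 0.168), and it ran from 0.11 without AC29 replicate 14 to 0.30 without AC29 replicate 15. No fold is given for a gene at background. Cfp, which encodes properdin, the stabiliser of that convertase, was not above the floor on any array (5.63 and 5.89). Cfi encodes factor I, the protease that cuts C3b and C4b when a cofactor is present. Its values lay between 4.89 and 5.15 in AB1 and between 5.03 and 5.06 in AC29, all under the floor, and the difference of 0.02 (95% interval -0.19 to 0.22) had no stable sign under other scalings.

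C2 and Cfb are neighbours in the class III region of the major histocompatibility complex on chromosome 17, so the genes around them were read in order. Of 12 measured genes from Tnxb to Neu1, C2 was the only one called in limma, which is 8.33% against 10.9% of all genes. Cfb, next to it on one side, differed by 0.21 and the transcription factor gene Zbtb12, on the other, by 0.17. Ehmt2, a histone methyltransferase, differed by 0.38 (limma adjusted p = 0.00935). The other probe set of Ehmt2, above the floor on 6 arrays, differed by 0.23 (limma adjusted p = 0.184 over all probe sets). Neu1, a lysosomal sialidase at the end of the stretch, read 7.34, 7.26 and 7.04 in AB1 and 8.02, 8.29 and 8.14 in AC29. Its lines did not overlap, and its difference of 0.93 (95% interval 0.68 to 1.18, limma adjusted p = 0.00012) was 1.91-fold, just under the rule. No array was above the floor for the other probe sets of Neu1, which differed by 0.0013 and 0.027. Stk19 (-0.54) and Dxo (-0.31), on the Cfb side, had the opposite sign, with limma adjusted p-values of 0.00141 and 0.0118. Nelfe, a subunit of a transcription elongation factor, differed by -0.11, Skiv2l, an RNA helicase, by -0.24 and Cyp21a1, a steroid hydroxylase, by 0.12, and none of them passed limma at any size. Slc44a4 and Tnxb were not above the floor on any array. The C4 genes of this stretch share a probe set with another symbol and were not analysed here.

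**Figure D3:**
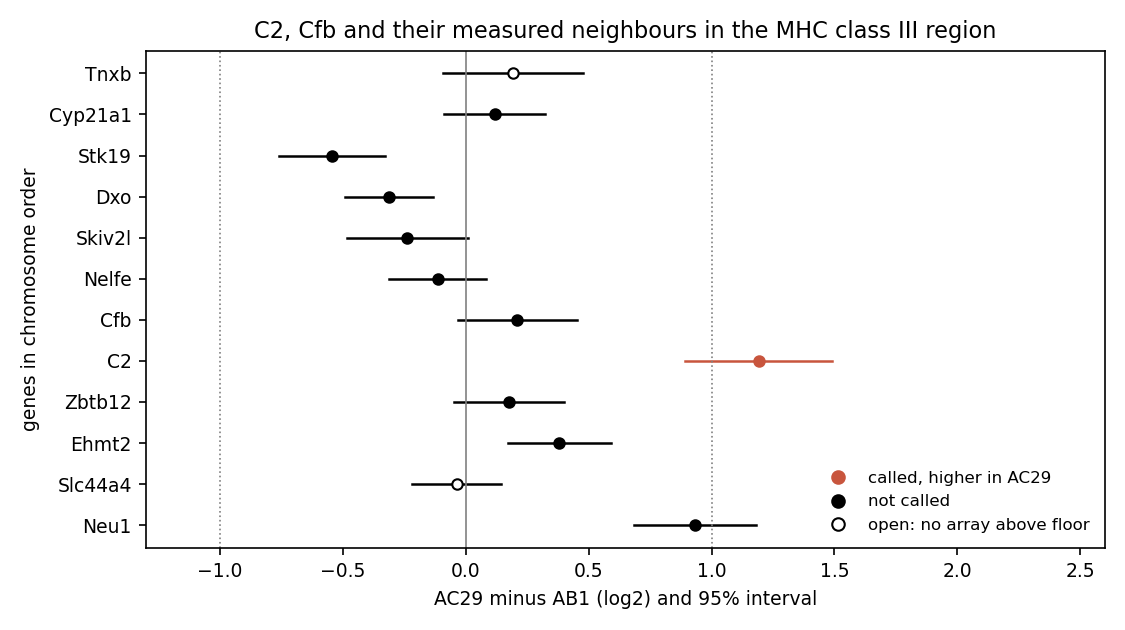
Difference between the lines (AC29 minus AB1, log2) with its 95% interval for C2, Cfb and 10 measured genes around them, from top to bottom in chromosome order; open circles mark genes with no array above the floor and dotted lines a 2-fold difference. C2 at 1.19 and Neu1 at 0.93 lie farthest to the right, and genes between them run from -0.04 for Slc44a4 to 0.38 for Ehmt2.

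The membrane regulators did not pass the rule in either direction. Cr1l, known in rodents as Crry, is a cofactor for factor I and dissociates the C3 convertases, and it is the broadly expressed regulator of mouse cells. It read 10.64, 10.67 and 10.47 in AB1 and 10.29, 10.53 and 10.20 in AC29. It was therefore far above the floor on all 6 arrays, and the lines overlapped through AC29 replicate 14. The difference was -0.25 (SE 0.110, 95% interval -0.50 to -0.0043, limma adjusted p = 0.105), which is 1.19-fold. Without AC29 replicate 14 it was -0.35 (adjusted p = 0.0195), still under the 2-fold minimum. The other 2 probe sets of Cr1l were not above the floor.

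Cd59a encodes a small lipid-anchored protein that blocks the assembly of the membrane attack complex. It read 6.50, 6.58 and 6.53 in AB1 and 6.84, 6.82 and 6.94 in AC29. Every AC29 array exceeded every AB1 array, although both lines were close to the floor. The difference was 0.33 (SE 0.0812, 95% interval 0.14 to 0.51), or 1.26-fold, with a limma adjusted p = 0.0101. The second probe set of Cd59a differed by 0.44, or 1.36-fold, in the same direction, with only 1 of 3 AB1 arrays above the floor. The upper end of each interval lay under a 2-fold difference on the deposited scale, which compresses dim values.

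Cd55 encodes decay-accelerating factor, which takes the C3 convertases apart and is also lipid-anchored. Its brightest probe set read 3.89, 3.22 and 3.83 in AB1 and 4.85, 4.33 and 4.51 in AC29. The AC29 arrays were the higher ones, but all 6 values and all those of the other 2 probe sets lay under the floor. The difference of 0.92 (SE 0.191, limma adjusted p = 0.00402) therefore gives no fold. It passed the 2-fold minimum without AB1 replicate 4 (1.04), without AB1 replicate 6 (1.01) or without AC29 replicate 14 (1.03), which raised the count of called genes among the 7 to 2. The other 2 probe sets differed by 0.16 and 0.52.

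Promoter sequences from RefSeq on GRCm38.p6 were held for 4 of the 7 measured genes, Cd59a, Cr1l, Cd55 and C1qbp, and not looked for elsewhere. Those of the membrane regulators above the floor on all arrays, Cd59a and Cr1l, are shown for the 250 bases before the start. Capitals mark matches on either strand to an interferon response element, searched as GAAA and GAAA with 2 bases between them, or to a loose NF-kappaB pattern, searched as GGG and CC with 5 bases between them. The Cd59a stretch is chr2:104095551-104095800 on the plus strand, and the Cr1l stretch is chr1:195131571-195131820 on the minus strand. The RefSeq gene entry of Cd59a begins upstream of the start used here, at base 104095753. The end of the Cd59a stretch, with its NF-kappaB match, therefore lies inside that entry.
Cd59a: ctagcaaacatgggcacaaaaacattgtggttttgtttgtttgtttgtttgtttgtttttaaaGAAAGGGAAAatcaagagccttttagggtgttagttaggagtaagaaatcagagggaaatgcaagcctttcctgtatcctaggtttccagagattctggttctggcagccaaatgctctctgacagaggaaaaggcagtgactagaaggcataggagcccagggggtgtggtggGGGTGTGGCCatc
Cr1l: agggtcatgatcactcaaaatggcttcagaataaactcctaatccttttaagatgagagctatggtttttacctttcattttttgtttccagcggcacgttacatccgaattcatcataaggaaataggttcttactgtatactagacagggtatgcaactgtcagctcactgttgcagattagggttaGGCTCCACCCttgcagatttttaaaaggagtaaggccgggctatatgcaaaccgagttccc
Over windows of 300 bases, from 250 before to 50 after the start, the interferon letters stood in 3.44% of 32851 RefSeq promoters and the NF-kappaB letters in 50.8%. Among the 4 genes with a promoter, the interferon letters occurred in Cd59a only and the NF-kappaB letters in all of them. Among 38 complement genes with a promoter, the interferon letters occurred in Cd59a, Cd46, Colec11 and Vtn, of which none was called in limma. A match describes the letters and is not evidence of binding.

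C1qbp encodes a mainly mitochondrial protein that also binds the globular heads of C1q at the cell surface. It was bright in both lines, at 13.24, 13.35 and 13.25 in AB1 and 13.53, 13.33 and 13.45 in AC29. The lines overlapped through AC29 replicate 14. The difference was 0.16 (SE 0.0887, 95% interval -0.04 to 0.36, limma adjusted p = 0.213), or 1.11-fold. Its other probe set differed by 0.23 (95% interval 0.04 to 0.43, adjusted p = 0.0703). Both intervals lay under a 2-fold difference on the deposited scale, which compresses very bright values, so a larger RNA difference is not excluded.

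The wider cascade was read from lists arranged by role, with 60 genes of which 49 were measured. Of these, 5 were called as higher in AC29 and 2 as higher in AB1, 14.3% in all against 10.9% of all genes. The median difference was 0.06. No array was above the floor for 34 of the 49, a state found for 36.0% of all genes. The called genes lay in the C1 proteases, C2, soluble regulators, a lectin pathway protease and a scavenger receptor, and none in the terminal pathway or among the membrane regulators.

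**Figure D4:**
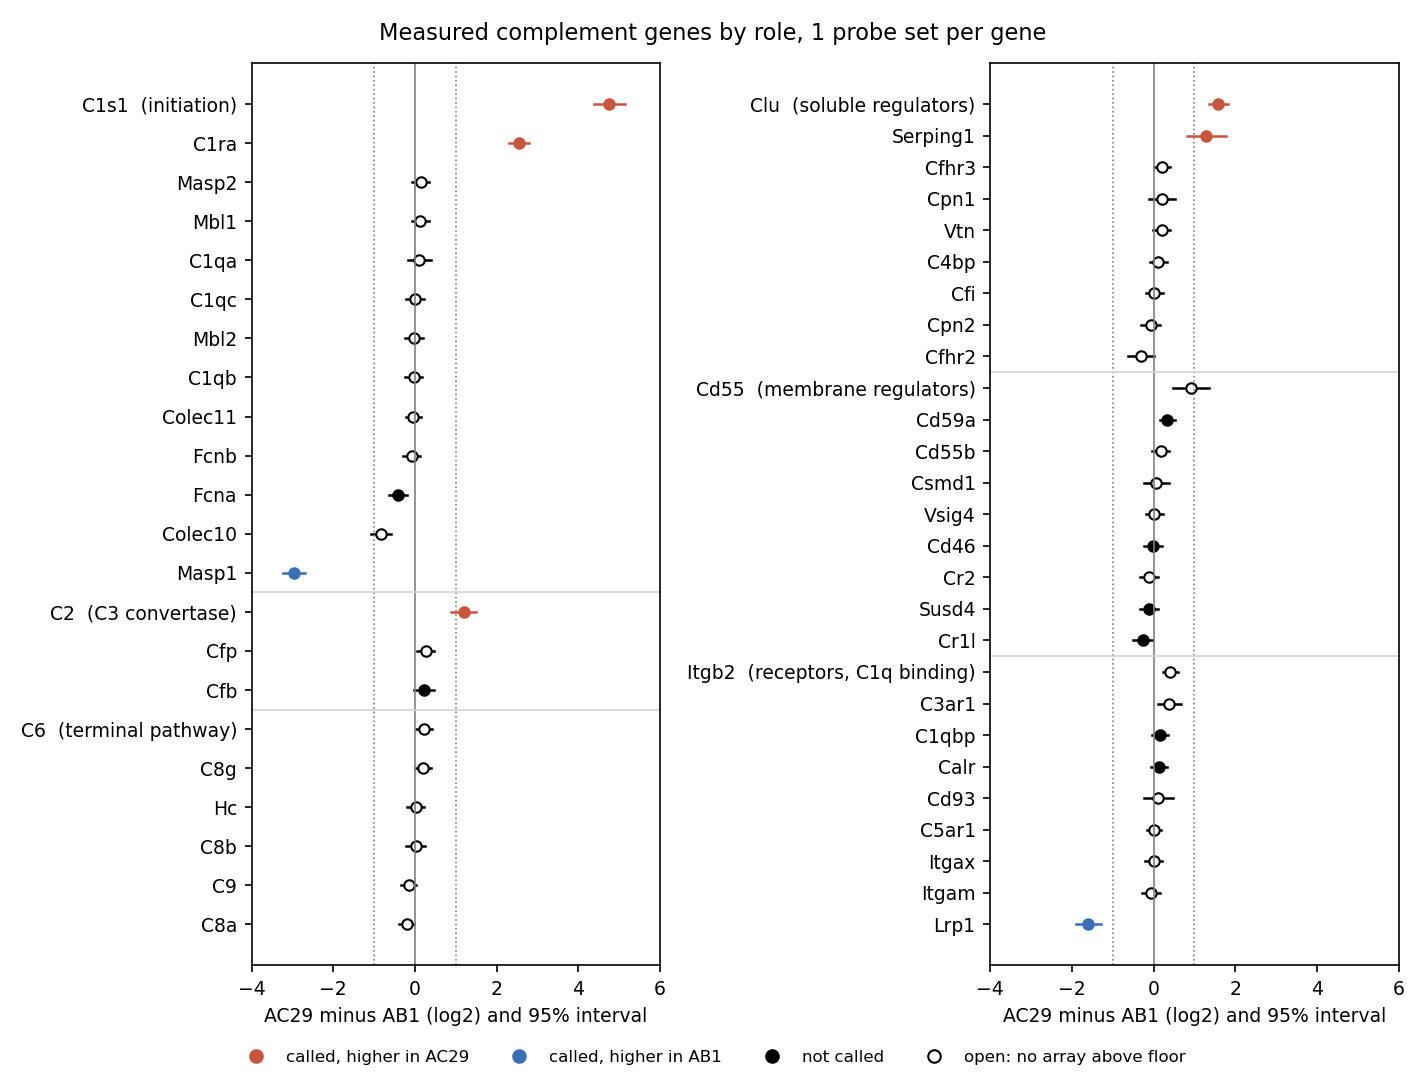
Difference between the lines (AC29 minus AB1, log2) with its 95% interval for the 49 measured complement genes, grouped by role and sorted by difference within a group; red and blue mark called genes, black those not called, and open circles genes with no array above the floor. C1s1, C1ra, Clu, Serping1 and C2 are called toward AC29 and Masp1 and Lrp1 toward AB1, while most other genes are open circles near 0.

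Upstream of C2, the proteases of the C1 complex were higher in AC29. C1s1 encodes C1s, which cleaves C4 and C2. It read 5.00, 5.12 and 4.41 in AB1, all under the floor, and 9.64, 9.62 and 9.55 in AC29. It was thus at least 11.5-fold higher in AC29 (difference 4.76, limma adjusted p = 3.17e-08). C1ra encodes C1r, which activates C1s, and read 7.04, 7.18 and 6.81 in AB1 against 9.57, 9.53 and 9.56 in AC29. The lines were far apart, at 5.83-fold (difference 2.54, SE 0.105, adjusted p = 9.69e-08). Each gene has a closely related copy in the mouse genome, C1s2 and C1rb, and the C1s1 probe set has the suffix s_at, which marks a match to several transcripts, so the split between copies is uncertain. C1qa, C1qb and C1qc, the chains of the recognition molecule C1q, were not above the floor on any array, with means of 3.77 to 5.01.

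Short stretches of the C1ra and C1s1 promoters are shown because these genes, close to each other on chromosome 6, were higher together in AC29. Capitals mark TTGCNNAA, a C/EBP pattern found in 10.8% of all promoters, and TTCNNNGAA, a STAT pattern found in 8.30%, on either strand. For C1ra these are bases 17 to 41 after the start, chr6:124512637-124512661 on the plus strand. For C1s1 they are bases 250 to 221 before 1 of 2 annotated starts, chr6:124542580-124542609 on the minus strand. The window of the other start ends at base 124542571, short of this stretch, and holds no C/EBP match itself.
C1ra: TTATGCAAatgcttcaTTCCCTGAA
C1s1: agagagaaTTAGGCAAtctcaaaattcccc
The C/EBP letters stood in 5 of 38 complement promoters and the STAT letters in 8. Among the 4 genes Cd59a, Cr1l, Cd55 and C1qbp neither occurred.

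In the lectin pathway, Masp1 went the other way. It encodes proteases that associate with mannose-binding lectin and ficolins. Its values were 9.78, 9.61 and 9.34 in AB1 and 6.69, 6.61 and 6.52 in AC29, which is 7.84-fold higher in AB1 (difference -2.97, limma adjusted p = 8.26e-08). Other probe sets of Masp1 differed by -4.21, -1.68, -1.59 and -0.35, and the last pair were not above the floor. Without probe sets of suffix x_at or s_at only those remained and Masp1 was not called, with -0.35. No array was above the floor for Mbl1, Mbl2, Masp2, Fcnb, Colec10 and Colec11, and Fcna, a ficolin, read 6.37 in AB1 and 5.95 in AC29.

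Soluble regulators that were called were higher in AC29. Clu encodes clusterin, which binds terminal complexes before they insert into membranes, and read 7.13, 7.13 and 6.85 in AB1 and 8.68, 8.68 and 8.52 in AC29. The lines did not overlap, and the difference was 3.00-fold (1.59, limma adjusted p = 2.36e-06). Its other probe sets differed by 1.61, 1.44 and 2.55, each past the rule. Serping1 encodes the C1 inhibitor, which binds and removes C1r and C1s. It passed the rule with a difference of 1.29 (adjusted p = 0.00092), but its AC29 values of 6.24, 5.76 and 6.12 lay at the floor and those of AB1 at 4.27 to 5.14 under it, so no fold is given. C4bp, Vtn, Cpn1, Cpn2, Cfhr2 and Cfhr3 were not above the floor.

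None of 6 measured terminal genes, C6, C8a, C8b, C8g, C9 and Hc, the gene of C5, was above the floor on any array. Among 9 receptors and C1q binding proteins only Lrp1 was called. It encodes a large endocytic receptor and read 9.96, 10.41 and 10.24 in AB1 and 8.52, 8.47 and 8.81 in AC29, 3.04-fold higher in AB1 (difference -1.61, limma adjusted p = 1.20e-05). Calr, a chaperone that also binds C1q, read 13.32 ± 0.02 and 13.44 ± 0.08 and was not called. The anaphylatoxin receptors C3ar1 and C5ar1 and the integrin chains Itgam, Itgax and Itgb2 of the C3 fragment receptors were under the floor in both lines. Among the other membrane regulators, Cd46 read 6.07 in AB1 and 6.06 in AC29 and Susd4 6.75 and 6.63, both near the floor, while Cd55b, Cr2, Vsig4 and Csmd1 were under it.

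Cd55 and Cd59a proteins reach the surface on a glycosylphosphatidylinositol (GPI) anchor, which is built and attached in the endoplasmic reticulum. None of 26 measured GPI anchor genes was called by limma with the 2-fold minimum, where 10.9% of all genes were called. At an adjusted p under 0.05 of any size 12 passed, where 39.1% of all genes did. The median difference was -0.08. Pigf, which acts late in the assembly, read 9.12 ± 0.04 in AB1 and 10.02 ± 0.33 in AC29, a difference of 0.89 (limma adjusted p = 0.00102). Pigv, a mannosyltransferase, went the other way at -0.85 (7.62 ± 0.06 and 6.77 ± 0.06, adjusted p = 3.32e-05), as did Piga, which starts the pathway, at -0.49 (adjusted p = 0.00636). The brightest genes, Pigq (10.19 and 10.50) and Dpm1 (10.20 and 9.94), were not called.

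Liver and stromal cells make C2 and factor B as acute phase proteins, and the acute phase list was therefore read beside them. Of 22 measured genes, 3 were called as higher in AC29, 1 as higher in AB1, and 17 were not above the floor on any array. The called share was 18.2% against 10.9% of all genes, of which 36.0% were not above the floor. Ptx3, a pattern recognition protein that binds C1q, read 5.34, 5.17 and 5.51 in AB1 and 11.38, 11.60 and 11.52 in AC29, at least 43.0-fold (difference 6.16, limma adjusted p = 5.59e-10). Higher in AC29 too were Cp, which encodes ceruloplasmin, by at least 5.57-fold, and Lbp, which binds bacterial lipopolysaccharide, by at least 1.95-fold. Lbp was not called on the mean of its probe sets (0.74), and its AC29 mean of 7.04 lay under the 99th percentile of the sensory receptor probe sets, 7.23. Cd14, its surface partner, was 3.39-fold higher in AB1, at 9.02 ± 0.08 against 7.26 ± 0.07. Of the brightest genes not called, Hp (6.02 in AB1 and 5.95 in AC29) was above the floor on 1 AB1 array only. Saa3 (5.85 and 6.00) stayed under it.

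Transcription factors known for complement promoters differed in both directions. Of 12 measured, 2 were called as higher in AC29 and 3 as higher in AB1, 41.7% in all against 10.9% of all genes. Irf1, an interferon-induced factor, read 8.53 ± 0.01 in AB1 and 10.22 ± 0.18 in AC29 (3.23-fold, limma adjusted p = 1.46e-06). Stat3, which signals for the interleukin 6 family, read 8.93 ± 0.11 and 10.67 ± 0.22 (3.32-fold), but fell under the minimum on the mean of its probe sets (0.94). Cebpa (8.55 ± 0.12 in AB1 and 6.06 ± 0.23, at the floor, in AC29), Cebpd (2.04-fold) and the oestrogen receptor Esr1 (16.7-fold) were higher in AB1. Cebpd was not called without AC29 replicate 15 (-0.98) or on the mean of its probe sets (-0.64). Cebpb was present in both at 11.26 ± 0.08 and 11.96 ± 0.21, and Rela, a subunit of NF-kappaB, at 9.90 ± 0.01 and 10.17 ± 0.16. Whether any of these bears on C2 was not tested.

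All 13 measured receptors for cytokines and microbial products known to induce complement genes were above the floor in at least 1 line, and 2 were called, 15.4% against 10.9% of all genes. The toll-like receptor Tlr2 was called as higher in AC29, at least 2.56-fold (5.39 ± 0.02 in AB1 and 7.43 ± 0.04 in AC29). The interleukin 1 receptor Il1r1 was 3.29-fold higher in AB1 (9.49 ± 0.03 and 7.78 ± 0.01, limma adjusted p = 1.71e-07). Il1r1 was not called on the mean of its probe sets (-0.86). The brightest genes not called were Tnfrsf1a, a receptor for tumour necrosis factor, with a difference of 0.61, and Ifnar2, a chain of the type I interferon receptor, with 0.66. Tlr4, Osmr and Tnfrsf1b came nearest to the 2-fold minimum among the genes not called, with -0.87, 0.83 and 0.83. Other probe sets of Tlr4 differed by -0.38, by -0.36 under the floor, and by 0.54 in the opposite direction with 4 arrays above it. The median difference of this list was 0.49, and -0.0047 over all genes.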

How the data were processed

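Per the labels' protocols, 5 ug of total RNA gave the biotin-labelled cRNA for each Affymetrix array. The authors deposited log2 intensities of 45101 probe sets. GCOS, RMA and Partek 6.4 appear in the submitters' processing notes, which do not say what each was used for. The log2 scale was taken from the range of the values. RMA compresses dim and very bright values, which understates differences there. Scan dates and detection calls were not used here. The 64 control probe sets were left out. Of the rest, 34945 had 1 symbol in the platform annotation, 932 several (none named) and 9160 none listed; 34741 matched RefSeq by Entrez identifier.

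Line was the only term of the fit (limma 3.58.1, R 4.3.3, lmFit and eBayes, 2-sided) on all 6 arrays and all probe sets outside the controls. P-values were adjusted by Benjamini-Hochberg over 18193 genes, or over all probe sets for a second probe set. Residual degrees of freedom were 4, and 8.92 after moderation. Where 1 line had no array above the floor, the fold is the brighter mean over the floor, a lower bound. Precision is limited by having 3 arrays per line; the standard error of a difference had a median of 0.0999. On simulated arrays of this comparison with 18193 genes, log2 changes of 1 and 1.5 were called in 44% and 100% of 50 genes each. A change of 1 lies on the 2-fold minimum itself, and 92% of those genes had a limma adjusted p under 0.05.

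The genes and the 16 lists were chosen with earlier results of these data known. Named were all genes of the opening list, from each list at most 6 called genes per direction with the 2 brightest uncalled ones, the measured class III neighbours, and the 3 genes nearest in profile; other genes named were chosen after their values were seen. Alternatives covered scaling, choice of probe set, a filter on dim genes, moderation, call rule, floor and each replicate left out.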

Additional observations from a re-analysis of the deposited data

How the results depend on the processing

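No paired analysis was possible because the lines share no replicate numbers. Of 69 genes followed one by one under 16 settings, 5 changed sign, none of them called. Cfi stood at -0.0034 with quantile normalization, -0.00094 with centring on the median, -0.0089 with array weights and -0.049 to 0.078 over the left-out replicates, where Cd46 ran from -0.083 to 0.032 and Ttr from -0.033 to 0.12. On the mean of the probe sets Apoa1 stood at -0.022, Ttr at -0.056 and Dpm1 at 0.037, and without probe sets marked x_at or s_at Apoa1 at -0.082. C2 kept its direction under all of them and its call under all but 1, limma's test against a 2-fold difference, which called 0 of the 7 genes, 3 complement genes as higher in AC29, 0 genes of the class III stretch and 1237 of all genes, against 1, 5, 1 and 1991 by the rule.

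Without a minimum difference the counts were 3 of the 7 genes, 10 complement genes as higher in AC29 and 4 as higher in AB1, 12 GPI anchor genes, 8 transcription factors, 9 cytokine receptors, 5 class III genes and 7105 of all genes. On the mean of the probe sets of a gene, 3 transcription factors and 1 cytokine receptor were called, in place of 5 and 2. Without probe sets marked x_at or s_at, 1 complement gene in place of 2 was higher in AB1. The count of the 7 genes ran from 1 to 2 over the left-out replicates, through Cd55. A floor at the 90th or 99th percentile put the bound for C1s1 at 15.1-fold or 5.18-fold and that for Ptx3 at 56.3-fold or 19.3-fold. Values at the floor limit what can be said of Cfb, Cfi, Cd55 and Serping1.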
